A study of Arabidopsis thaliana with 18 samples.

Results

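The LHCA genes encode the antenna of photosystem I, the belt of light-harvesting proteins that feeds energy to its reaction centre. Transcripts of this family were followed in Arabidopsis thaliana seedlings of the jmj17-1 mutant and of the wild type as they left the dark. The family was taken as 6 loci, LHCA1 to LHCA6, and each was looked up by its locus in the deposited differential expression table, among probe sets naming 1 locus only. In this way 5 of the 6 genes were measured, of 6481 loci named this way in the whole table. They were LHCA1 (AT3G54890), LHCA3 (AT1G61520), LHCA4 (AT3G47470), LHCA5 (AT1G45474) and LHCA6 (AT1G19150), each with 1 probe set. LHCA2 (AT3G61470) is not analysed here.

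Whole seedlings of both genotypes, in the Col-0 background, were grown on sugar-free medium and kept in the dark for 4 days, then given 0, 2, 4 or 8 h of light. No group stayed in the dark for those added hours, so light and elapsed time cannot be told apart. Changes from dark are called light changes here with that limit. The jmj17-1 groups held 3 arrays in the dark and 2 at each light time, and so did the wild-type groups. JMJ17 encodes a histone demethylase of the JmjC class, and the mutant is represented by a single allele. JMJ17 itself is not analysed here, so the mutant label was not checked on its own transcript. Replicates are numbered without a word on separate sowings or cultures, so every p-value reflects array-to-array spread that could be technical.

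In plants the LHCA proteins sit as a belt along the side of the photosystem I core and bind chlorophyll a, chlorophyll b and carotenoids. LHCA1 pairs with LHCA4 and LHCA3 pairs with LHCA2 in this belt, while LHCA5 and LHCA6 are scarce members that in Arabidopsis join photosystem I to the chloroplast NDH complex. All are encoded in the nucleus, and light on dark-grown seedlings is known to raise antenna transcripts as chloroplasts form.

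All values are log2 RMA intensities of Affymetrix ATH1 arrays, in which 1 unit is a doubling, and every difference is taken within a gene. The number of arrays limits the precision. Array medians lay between 7.17 and 7.33 over the 18 arrays. The table holds 6847 of the array's 22810 probe sets, and every probe set kept differed between jmj17-1 at 2 h and jmj17-1 in the dark, with an unadjusted p of at most 0.0237 on those 5 arrays. The comparison behind the list is not stated, and 9.81 percent of the probe sets left out also had a p under 0.05 there. Members found in the table therefore had to differ in that comparison, and its values are given as a description. Of the photosynthetic tissue markers 3 of 7 were measured, RCA, GAPA and GAPB, and they rose in the light in both genotypes. Rises made up 31.1 to 42.7 percent of all probe sets over the light comparisons. Markers in the table had to differ in jmj17-1 at 2 h, so their change is no check of the labels there. PORA, the protochlorophyllide reductase gene of dark-grown seedlings, fell by 5.35 in jmj17-1 and fell by 4.65 in wild type at 8 h. Of the root markers 4 of 10 were measured, and 1 rose and 2 fell at 8 h in each genotype. RHD2, an oxidase gene of root hairs, changed by -1.0 in jmj17-1 and -1.08 in wild type, and SCR, a root patterning gene, by 0.32 in jmj17-1 and 0.19 in wild type. Of 9 seed markers only OLEO2, for an oil-body protein, was measured. It was lower in dark jmj17-1 than in dark wild type (-1.76 ± 0.37, adjusted p = 0.0317; -1.36 and not called without replicate 2 of the dark mutant). In jmj17-1 it rose by 1.43, 1.90 and 1.29 at 2, 4 and 8 h, while the wild-type changes of -0.36, -0.70 and 0.17 were not called, and its interaction was not called at any light time. In whole seedlings, a larger share of photosynthetic cells and more transcript per cell cannot be told apart.

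All 5 measured genes were higher in the light than in the dark in both genotypes. On the log2 scale most of the 8 h change was present by 2 h. Members had to differ in jmj17-1 at 2 h against dark, so an early change there was a condition of being measured. How this bears on wild type was not tested. After 8 h the log2 rise in jmj17-1 ran from 1.4 for LHCA3 to 3.32 for LHCA1, and that in wild type from 1.38 for LHCA3 to 3.54 for LHCA1. Between the genotypes, no member passed the test at any time.

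LHCA1, the partner of LHCA4 in the antenna belt, had the largest fitted rise of the family at each light time. In jmj17-1 it measured 9.34, 9.97 and 8.95 in the dark, 12.41 and 12.44 at 2 h, 12.65 and 12.66 at 4 h, and 12.68 and 12.79 at 8 h. In wild type it measured 9.14, 9.33 and 9.18 in the dark, 12.28 and 12.28 at 2 h, 12.58 and 12.67 at 4 h, and 12.76 and 12.76 at 8 h. The 12 light arrays lay from 12.28 to 12.79 and the 6 dark arrays from 8.95 to 9.97, with no overlap. The share of all probe sets whose light and dark arrays, or light times, separate was not computed. Nothing is read from such separation, here or for the other members. The change at 8 h was 3.32 ± 0.19 in jmj17-1 (log2 difference ± SE, n = 2 light and 3 dark arrays), a 9.96-fold rise. In wild type it was 3.54 ± 0.19, an 11.6-fold rise with an adjusted p of 1.91e-10 (limma).

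LHCA4, a member known for its low-energy chlorophylls, rose less. It measured 10.81, 11.42 and 10.84 in dark jmj17-1, then 12.52 and 12.48 at 2 h, 12.72 and 12.62 at 4 h, and 12.56 and 12.79 at 8 h. Its wild-type arrays read 10.65, 10.92 and 10.90 in the dark, 12.54 and 12.47 at 2 h, 12.63 and 12.63 at 4 h, and 12.60 and 12.69 at 8 h. Light arrays began at 12.47 and dark arrays ended at 11.42, and the 4 h and 8 h arrays overlapped in both genotypes. The 8 h change was 1.65 ± 0.15 in jmj17-1 and 1.82 ± 0.15 in wild type (adjusted p = 1.93e-08).

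LHCA3, whose partner LHCA2 is not analysed here, had the smallest fitted rise. Its dark arrays were already brighter than at least 98.13 percent of probe sets, and the part of this brightness in the small rise was not tested. Dark jmj17-1 arrays read 11.80, 12.18 and 11.42, and those in the light 12.79 and 12.82 at 2 h, 12.99 and 12.99 at 4 h, and 13.15 and 13.26 at 8 h. Dark wild-type arrays read 11.72, 11.90 and 11.81, and those in the light 12.73 and 12.78 at 2 h, 12.83 and 12.91 at 4 h, and 13.17 and 13.20 at 8 h. Within each genotype the 3 light times did not overlap, and each later time lay higher. At 8 h LHCA3 had changed by 1.4 ± 0.15 in jmj17-1 and by 1.38 ± 0.15 in wild type (adjusted p = 4.14e-07), or 2.65-fold in jmj17-1 and 2.60-fold in wild type.

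LHCA5, a scarce linker between photosystem I and the NDH complex, was called as rising in the last step as well. The jmj17-1 arrays gave 8.01, 8.50 and 7.89 in the dark, 10.02 and 10.05 at 2 h, 10.15 and 10.21 at 4 h, and 10.82 and 10.82 at 8 h. The wild-type arrays gave 8.02, 7.96 and 7.99 in the dark, 9.84 and 9.76 at 2 h, 10.01 and 10.28 at 4 h, and 10.87 and 10.76 at 8 h. No 8 h array overlapped an earlier time in its genotype. The rise at 8 h was 2.69 ± 0.13 in jmj17-1 and 2.82 ± 0.13 in wild type (adjusted p = 6.42e-11).

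LHCA6, the other linker to the NDH complex, had the largest spread of the family among dark mutant arrays (SD 0.83, n = 3). In jmj17-1 it was at 7.61, 9.12 and 7.75 in the dark, 10.19 and 9.97 at 2 h, 10.26 and 10.25 at 4 h, and 10.76 and 10.83 at 8 h. In wild type it was at 7.53, 7.53 and 7.48 in the dark, 9.97 and 9.97 at 2 h, 9.86 and 10.36 at 4 h, and 10.97 and 10.70 at 8 h. Every light array exceeded every dark array, and replicate 2 of the dark mutant, at 9.12, stood between the other dark arrays and the light ones. The 8 h change was 2.64 ± 0.30 in jmj17-1 and 3.32 ± 0.30 in wild type (adjusted p = 7.63e-08). Without that replicate the jmj17-1 change was 3.11 ± 0.13.

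**Figure D1:**
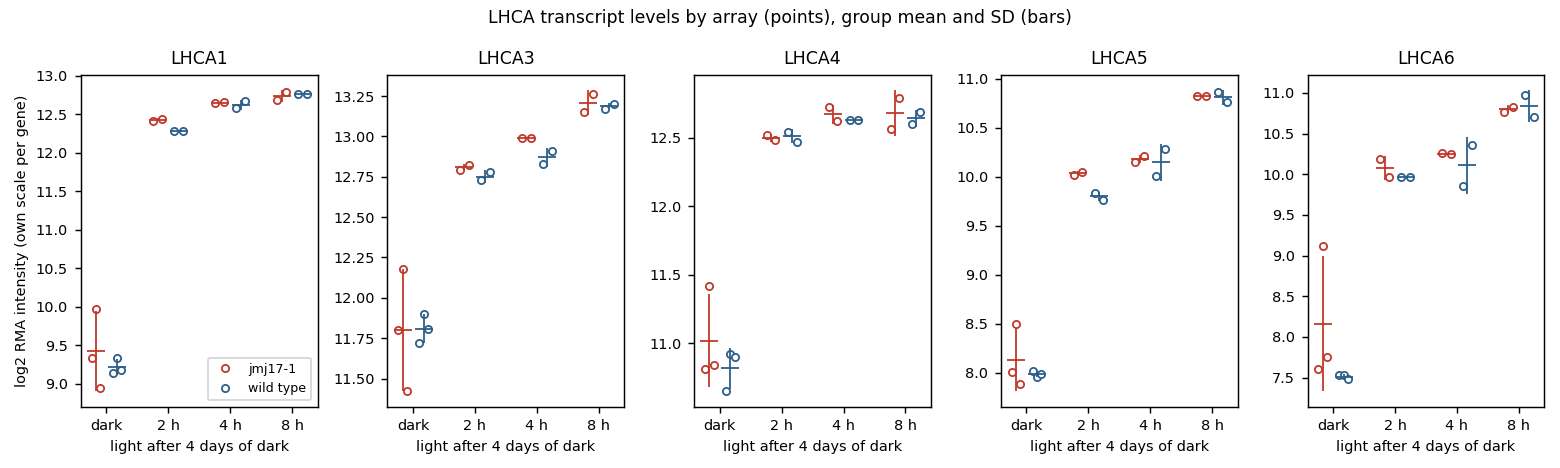
Log2 RMA intensity (vertical axis, a separate scale for each gene) of the 5 measured LHCA genes in the dark and after 2, 4 and 8 h of light. Points are arrays, with jmj17-1 left of wild type, and bars give the group mean and SD. Light arrays lie above dark arrays for every gene, and replicate 2 of the dark mutant is the highest dark array of each, at 9.12 for LHCA6. The share of all probe sets with such separation was not computed, so nothing is read from it.

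In each light comparison 5 of the 5 measured members were called as rises (adjusted p under 0.05). Among all probe sets in the table, rises made up 42.7 percent in jmj17-1 at 2 h, 31.9 percent at 4 h and 31.1 percent at 8 h, and nothing is read from the count in this genotype. The wild-type shares were 40.5, 31.3 and 31.7 percent at 2, 4 and 8 h. These counts too are over a selected table, and how its selection bears on the wild-type values was not tested. The median member change at 8 h was 2.64 in jmj17-1 and 2.82 in wild type, beside medians of -0.19 in jmj17-1 and -0.20 in wild type over all probe sets.

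The genes differed in how much of their 8 h change was present early. A gene without a change in jmj17-1 at 2 h could not be in the table, so the jmj17-1 shares are a description. How this selection bears on the wild-type shares was not tested. By 2 h, LHCA1 had 90.7 percent of its 8 h log2 change in jmj17-1 and 86.4 percent in wild type, and LHCA4 had 89.4 percent in jmj17-1 and 92.5 percent in wild type. LHCA5 had 70.8 percent in jmj17-1 and 64.1 percent in wild type at that time. LHCA3 (71.6 percent in jmj17-1 and 68.6 percent in wild type) and LHCA6 (72.9 percent in jmj17-1 and 74.0 percent in wild type) were nearer to LHCA5. The difference between members was not tested. In the light LHCA1, LHCA3 and LHCA4 were brighter than at least 99.49 percent of probe sets, and the part of this brightness in their small later steps was not tested.

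Between 2 h and 4 h, 0 of the 5 members were called as rises in either genotype. Of all probe sets, 20.6 percent rose in this step in jmj17-1 and 20.4 percent in wild type. At an unadjusted p under 0.05 the count was 0 in jmj17-1 and 1 in wild type, where LHCA5 changed by 0.35 ± 0.15 (adjusted p = 0.0636). Without replicate 2 of the dark mutant, which enters only through the pooled spread, wild-type LHCA5 (adjusted p = 0.0046) and LHCA1 (0.35 ± 0.11, adjusted p = 0.0136) passed.

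Between 4 h and 8 h LHCA5 was called in both genotypes, rising by 0.64 ± 0.15 in jmj17-1 (adjusted p = 0.00388) and by 0.67 ± 0.15 in wild type (adjusted p = 0.00233). That is 1 of 5 members in each genotype, against 14.8 percent of all probe sets in jmj17-1 and 17.3 percent in wild type. LHCA6 changed by 0.54 ± 0.33 in jmj17-1 (adjusted p = 0.22) and by 0.73 ± 0.33 in wild type (adjusted p = 0.0933). Without replicate 2 of the dark mutant the SE of these LHCA6 changes was 0.13 and both passed, with adjusted p = 0.00423 in jmj17-1 and adjusted p = 0.000369 in wild type. LHCA3 in wild type also passed without it (0.32 ± 0.10, adjusted p = 0.0202). LHCA4 differed by 0.01 in both genotypes in this step, with intervals from -0.34 to 0.35 in jmj17-1 and -0.33 to 0.35 in wild type.

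**Figure D2:**
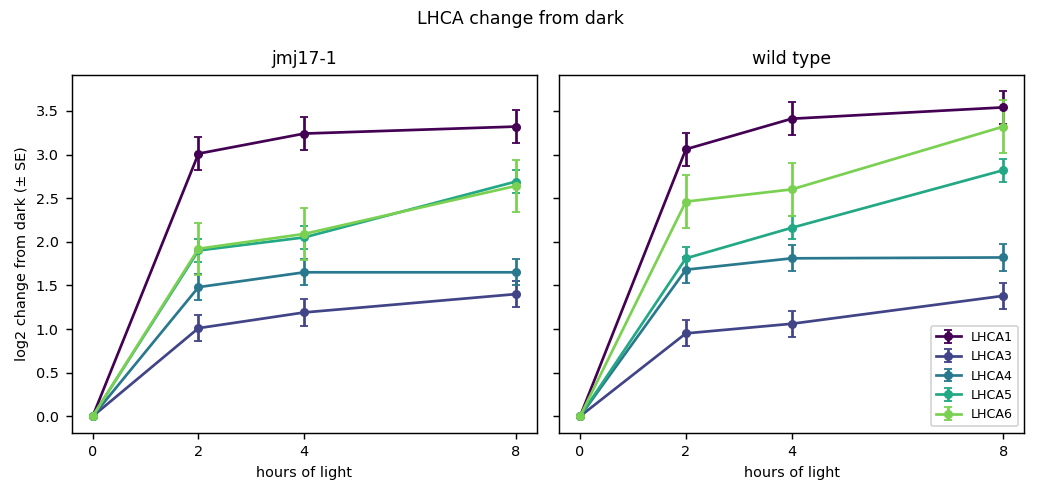
Log2 change from dark (vertical axis, ± SE) against hours of light for the 5 measured LHCA genes, in jmj17-1 (left) and wild type (right). LHCA4 gains 0.01 in both genotypes between 4 h and 8 h, while LHCA5 gains 0.64 in jmj17-1 and 0.67 in wild type.

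The comparison of genotypes asks whether the family is altered in the mutant in the dark or during greening. In the dark the mutant minus wild-type difference was 0.20 ± 0.17 for LHCA1, -0.01 ± 0.13 for LHCA3, 0.20 ± 0.13 for LHCA4 and 0.14 ± 0.12 for LHCA5 (n = 3 and 3 arrays). The groups overlapped for each of these. For LHCA6 the difference was 0.65 ± 0.27, and the mutant arrays at 7.61, 9.12 and 7.75 all lay above the wild-type arrays at 7.53, 7.53 and 7.48. Its unadjusted 95% interval ran from 0.07 to 1.22 and its adjusted p was 0.187. No member passed in the dark, against 1.8 percent of all probe sets, and 1 member, LHCA6, had an unadjusted p under 0.05.

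Replicate 2 was the highest dark mutant array for every member. It exceeded the mean of the mutant replicates 1 and 3 by 0.83 for LHCA1, 0.57 for LHCA3, 0.59 for LHCA4, 0.55 for LHCA5 and 1.43 for LHCA6. Without it the mutant minus wild-type difference was -0.07 for LHCA1, -0.20 for LHCA3, 0.00 for LHCA4, -0.04 for LHCA5 and 0.17 for LHCA6, and none passed. The LHCA6 value then was 0.17 ± 0.12 with an adjusted p of 0.601.

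After 2 h of light the genotype difference ran from -0.00 for LHCA4 to 0.24 for LHCA5. LHCA5 read 10.02 and 10.05 in jmj17-1, against 9.84 and 9.76 in wild type. The groups did not overlap, but the difference of 0.24 ± 0.15 had an adjusted p of 0.404. LHCA1 (0.15 ± 0.21) and LHCA3 (0.05 ± 0.16) also had their jmj17-1 arrays above the wild-type ones, with adjusted p = 0.733 and 0.889. The share of all probe sets whose groups separate in this way was not computed at any time, so nothing is read from it. None of the 5 passed, at adjusted or unadjusted p under 0.05, against 5.27 percent of all probe sets called.

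At 4 h the differences lay between 0.03 and 0.14. The LHCA3 groups did not overlap, at 12.99 and 12.99 in jmj17-1 and 12.83 and 12.91 in wild type (0.13 ± 0.16, adjusted p = 0.793). Here too nothing is read from the separation. At 8 h they lay between -0.04 and 0.03, and the groups overlapped for every member. Calls were 0 of 5 at both times, beside 2.72 percent of all probe sets at 4 h and 1.27 percent at 8 h. The unadjusted 95% intervals at 8 h ran from -0.46 to 0.41 for LHCA1, -0.32 to 0.36 for LHCA3, -0.31 to 0.38 for LHCA4, -0.31 to 0.32 for LHCA5 and -0.75 to 0.67 for LHCA6.

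Averaged over the 4 times, the mutant minus wild-type difference was positive for each member. It ran from 0.05 ± 0.08 for LHCA3 to 0.21 ± 0.16 for LHCA6 (adjusted p = 0.436), with 0 of 5 called and 8.76 percent of all probe sets called. Without replicate 2 of the dark mutant the averages lay between -0.00 for LHCA3 and 0.10 for LHCA6.

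**Figure D3:**
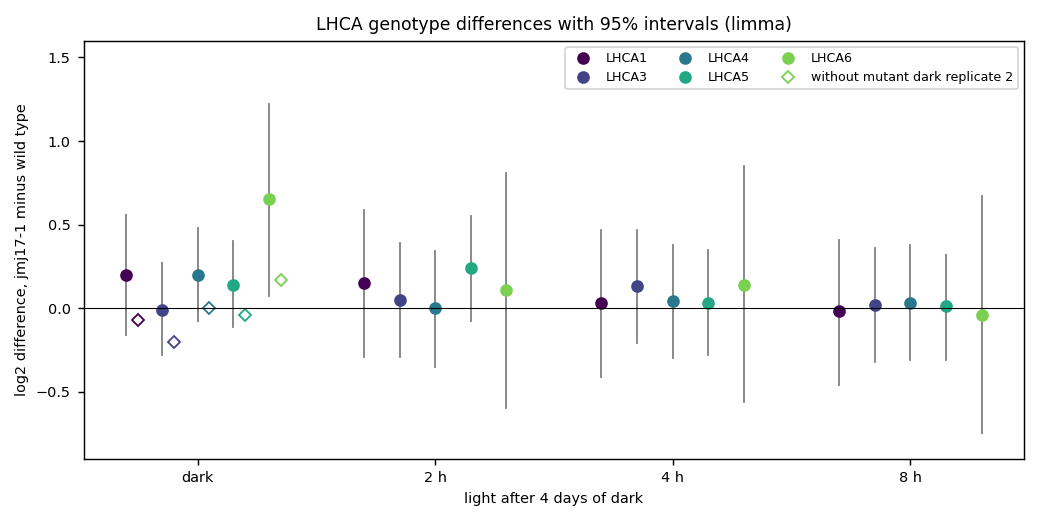
Log2 difference, jmj17-1 minus wild type (vertical axis), for the 5 measured LHCA genes in the dark and after 2, 4 and 8 h of light. Circles are the limma estimates with unadjusted 95% intervals and open diamonds are the dark estimates without replicate 2 of the dark mutant. The LHCA6 dark estimate is 0.65 with that array and 0.17 without it.

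Whether the change from dark differed in the mutant was tested as an interaction, the mutant light change minus the wild-type light change. No member passed at 2 h, 4 h or 8 h, where 0.102, 0.102 and 1.14 percent of all probe sets did, and none had an unadjusted p under 0.05. For LHCA6 the interaction was -0.54 ± 0.43 at 2 h, -0.50 ± 0.43 at 4 h and -0.69 ± 0.43 at 8 h (adjusted p = 0.382 at 8 h). Without replicate 2 of the dark mutant these became -0.06, -0.03 and -0.21. The remaining members lay between -0.23 and 0.13 over the 3 times, and between -0.01 and 0.32 without that array, the highest being LHCA3 at 4 h (0.32 ± 0.14, adjusted p = 0.342). Several of these were negative with the array and positive without it, among them LHCA1, LHCA4 and LHCA5 at 8 h.

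Replicate 2 of the dark mutant differed from its replicates beyond the family. Its correlation with the other dark mutant arrays was 0.985 with each, against 0.995 between those arrays and 0.996 to 0.997 among wild-type dark arrays. Its excess over replicates 1 and 3 for LHCA1 was 25.2 percent of the 2 h rise in the mutant measured from those replicates, and for LHCA6 it was 59.8 percent. LHCA3 (47.8 percent), LHCA4 (35.4 percent) and LHCA5 (26.3 percent) lay between these. For LHCA6 the excess was larger than that of 99.5 percent of probe sets.

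By their list medians, other photosynthesis genes stood higher on this array too, though not every gene did, as LHCB4.3 (-0.06) and PGRL1B (-0.25) show. The median excess was 0.845 over 10 photosystem I core genes, 0.555 over 8 photosystem II antenna genes, 0.97 over 15 genes of the NDH complex and the PGR5 route, and 1.05 over the 3 photosynthetic tissue markers. It was 0.44 over 2 genes of antenna targeting and chlorophyll b, and 0.26 over 11 regulators of antenna genes. Over the 4 root markers it was 0.01, and over all probe sets 0.01. PORA, whose transcript fell in the light, was also higher on this array, by 1.39, and OLEO2 differed by -1.19 there. The part of tissue make-up, light exposure or handling in this array was not tested.

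**Figure D4:**
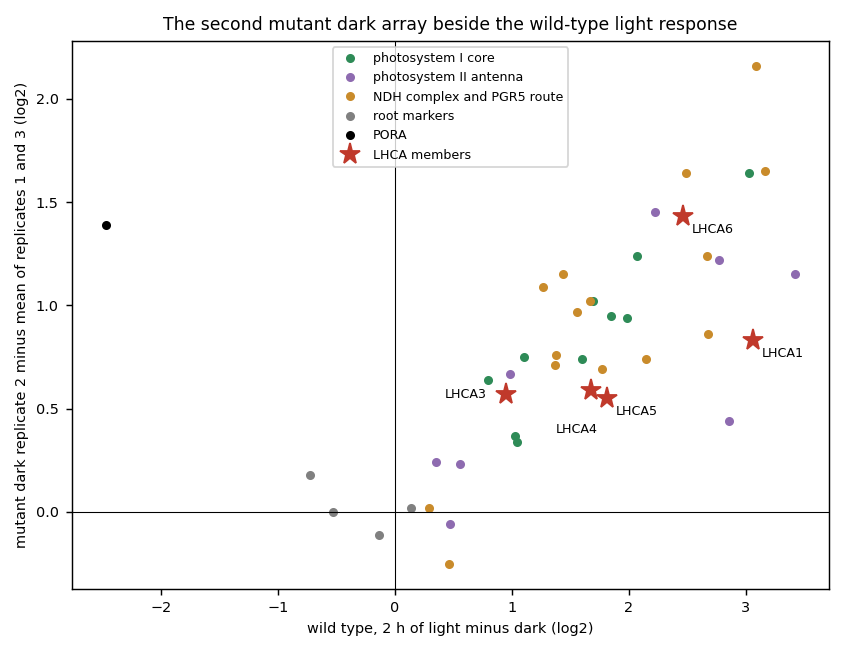
Excess of replicate 2 of the dark mutant over the mean of replicates 1 and 3 (vertical axis, log2) against the wild-type change from dark at 2 h of light (horizontal axis, log2). Points are genes and stars are the LHCA members. The members lie between 0.55 and 1.43 on the vertical axis, root markers lie near 0, and PORA is at 1.39 while its light change is -2.47.

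The family was set beside lists of genes of related roles, which were chosen with earlier results of these data known. The photosystem I core list holds the nuclear subunits that the LHCA belt attaches to, of which 10 of 12 were measured. All 10 were called as rises at 8 h in both genotypes, with a median of 1.88 in jmj17-1 and 2.29 in wild type. For this and the following lists, rises at 8 h made up 31.1 percent of all probe sets in jmj17-1 and 31.7 percent in wild type. Measured list genes also had to differ between jmj17-1 at 2 h and jmj17-1 in the dark. Nothing is read from the list counts in jmj17-1, and how the selection bears on wild type was not tested. PSAH2, for subunit H, had the largest wild-type change, 3.58 ± 0.33 (3.07 ± 0.33 in jmj17-1), and PSAG, PSAH1 and PSAL each had the smallest, 1.75.

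Of the photosystem II antenna, 8 of 15 listed genes were measured and all 8 rose at 8 h, with a median of 2.1 in jmj17-1 and 2.2 in wild type. LHCB2.3, for a protein of the mobile trimeric antenna, changed by 3.46 ± 0.25 in jmj17-1 and 3.88 ± 0.25 in wild type. LHCB4.1, for the minor antenna protein CP29, changed by 0.99 ± 0.11 in jmj17-1 and 0.87 ± 0.11 in wild type. LHCB4.3, a relative of LHCB4.1, was the only gene of this list called between genotypes, at 2 h (0.50 ± 0.13, adjusted p = 0.0372). Of all probe sets, 5.27 percent were called between genotypes at that time.

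The NDH complex and the PGR5 route carry cyclic electron flow around photosystem I, and LHCA5 and LHCA6 join the NDH complex to the photosystem. Of 20 listed genes 15 were measured, and all 15 rose at 8 h, with a median of 2.89 in jmj17-1 and 3.31 in wild type. PNSB3, for an NDH subunit, changed by 3.71 ± 0.44 in jmj17-1 and 4.75 ± 0.44 in wild type, and PGRL1B, for a PGR5-like protein, by 0.30 ± 0.10 in jmj17-1 and 0.49 ± 0.10 in wild type. Between 4 h and 8 h, 9 of the 15 rose in jmj17-1 and 11 in wild type, with a list median of 0.69 in jmj17-1 and 0.85 in wild type. Of all probe sets, 14.8 percent rose in this step in jmj17-1 and 17.3 percent in wild type. In the same step LHCA5 and LHCA6 gave 0.64 and 0.54 in jmj17-1 and 0.67 and 0.73 in wild type. The photosystem I core had 1 of 10 rises in jmj17-1 and 2 of 10 in wild type in that step, with a median of 0.25 in jmj17-1 and 0.33 in wild type. Leaving out replicate 2 of the dark mutant, which enters this step only through the pooled spread, gave 14 of 15 rises in each genotype for the NDH and PGR5 list. The photosystem I core then had 5 of 10 in jmj17-1 and 9 of 10 in wild type. The share of all probe sets rising in that fit is not given here, so these counts have no background beside them. The difference between the lists was not tested.

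Of the genes for antenna targeting and chlorophyll b, 2 of 8 were measured and both rose. CAO, the oxygenase that makes chlorophyll b, changed by 1.87 ± 0.14 in jmj17-1 and 2.06 ± 0.14 in wild type at 8 h. CPSRP43, a chaperone that carries antenna proteins to the thylakoid, changed by 1.3 ± 0.15 in jmj17-1 and 1.43 ± 0.15 in wild type.

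Of the regulators of antenna genes, 11 of 14 listed were measured, and all 11 passed as rises at 2 h in both genotypes. The median was 1.25 in jmj17-1 and 1.58 in wild type. Rises made up 42.7 percent of all probe sets in jmj17-1 and 40.5 percent in wild type at 2 h. Measured genes had to differ in that jmj17-1 comparison, so nothing is read from its count. How this selection bears on wild type was not tested. From 2 h to 4 h, 9 of the 11 fell in each genotype. Of all probe sets, 23.5 percent fell in this step in jmj17-1 and 26.8 percent in wild type. At 8 h, 6 were above dark and 3 below in jmj17-1, and 7 above and 2 below in wild type, where falls made up 47.7 percent of all probe sets in jmj17-1 and 48.6 percent in wild type. HYH, a bZIP factor related to HY5, changed by 2.45 ± 0.36 in jmj17-1 and 3.85 ± 0.36 in wild type at 8 h. LHY, a clock factor of the MYB class, fell by 2.51 ± 0.09 in jmj17-1 and fell by 2.27 ± 0.09 in wild type. LHY was also the only regulator called between genotypes, with a jmj17-1 minus wild-type difference of -0.41 at 4 h (adjusted p = 0.0476). At that time 2.72 percent of all probe sets were called between genotypes.

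In the dark, none of the measured genes of these 5 lists was called between genotypes. Only 1.8 percent of all probe sets were called there, so nothing is read from this count. The list medians in the dark of jmj17-1 minus wild type were 0.35 for the photosystem I core, 0.14 for the photosystem II antenna and 0.40 for the NDH and PGR5 list, beside 0.20 for the LHCA members. Without replicate 2 of the dark mutant they were 0.05, -0.10 and 0.13. In the light, calls gained between genotypes without that array were PNSL3 (0.59, adjusted p = 0.0194) and PGRL1A (0.32, adjusted p = 0.0473), both NDH and PGR5 list genes higher in jmj17-1 at 2 h. The others were PORA at 2 h (-0.51, adjusted p = 0.035) and the clock gene CCA1 at 8 h (-0.53, adjusted p = 0.0481), both lower in jmj17-1. That array enters these light comparisons only through the pooled spread, and the differences themselves were unchanged. The share of all probe sets called in that fit is not given here, so nothing is read from the gained calls.

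**Figure D5:**
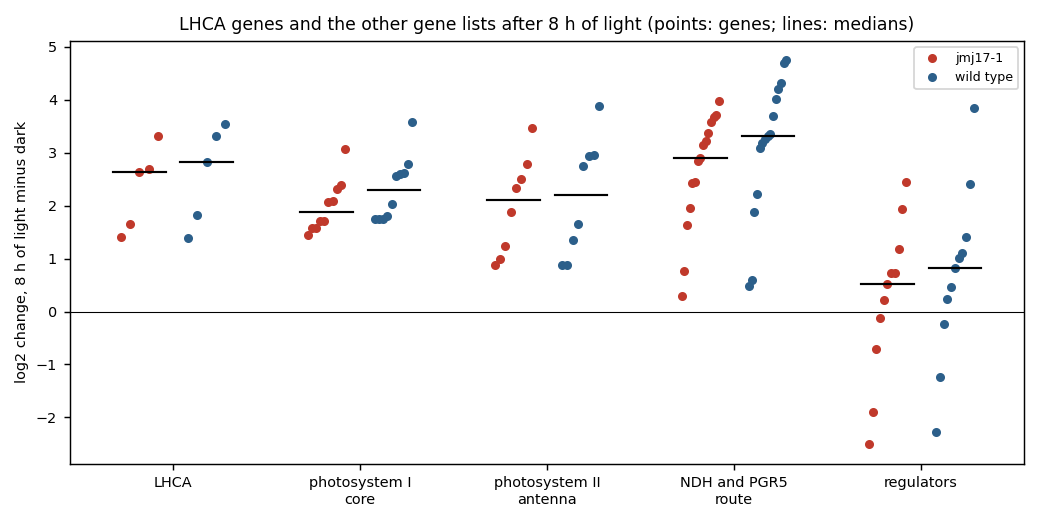
Log2 change at 8 h of light minus dark (vertical axis) of the LHCA members and 4 lists of other genes, with jmj17-1 left of wild type. Points are genes and lines are medians, which are 2.64 in jmj17-1 and 2.82 in wild type for LHCA. Points of the regulators fall on both sides of 0.

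The 5 members had closely similar courses. Over the 8 group means their pairwise Pearson correlations ran from 0.962 to 0.999, given as a description, since the groups share the light schedule and the arrays. LHCA1 and LHCA4, the partners in the belt, had the value of 0.999. The spread of such correlations over all probe sets is not given here, so these values are not read as particular to the family or the partners. Among 6476 other loci, the gene nearest to both LHCA1 and LHCA4 over those means was LHCB3, a photosystem II antenna gene (r = 0.998 for each). For LHCA1 the next were AT5G16010 and the squalene epoxidase gene SQE3 (r = 0.998 for each). For LHCA4 they were PSAH2 and GLDP1, for the P-protein of glycine decarboxylase.

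LHCA3 was nearest to GLDP2, which encodes another glycine decarboxylase P-protein, then to the cytochrome P450 gene CYP72A11 and the acyl carrier protein gene ACP4. LHCA5 was nearest to AT1G64680, AT2G36885 and AT1G74730 (r = 0.999 for the first). LHCA6 was nearest to AT1G49380, to TRXF1, which encodes a plastid thioredoxin, and to GAPA-2, a gene of the Calvin-Benson cycle. The mean course of the family was nearest to PSAD1, CDSP32 and LHCB6 (r = 0.999 for PSAD1). LHCB3 changed at 8 h by 2.78 in jmj17-1 and 2.95 in wild type, and PSAD1 by 1.70 in jmj17-1 and 2.03 in wild type.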

How the data were processed

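Biotin-labelled RNA of whole seedlings was measured on 18 ATH1 arrays, and the submitters' processing notes name GCOS 1.4. The authors' summary was RMA followed by quantile normalization, per the file headers, which also give the limits of their list, a p of 0.05 and a fold of 1. The deposited table gives linear intensity for 6847 probe sets, and 15963 others of the array were left out. The log2 of these intensities, centred per probe set, equals the deposited log2 block. Another deposited file gives centred log2 values of all 22810 probe sets. Only 2 of its columns hold the values that the table gives under the same title, and 16 hold those of another array, so it served only as an alternative, each column taken as the array it equals.

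Groups came from sample titles. Log2 values were fitted with 1 mean per group in limma 3.58.1 (R 4.3.3; lmFit, contrasts.fit, eBayes), with residual degrees of freedom of 10 and prior degrees of freedom of 4.91, in 18 comparisons. P-values were Benjamini-Hochberg adjusted over 6847 probe sets and called under 0.05. Only probe sets naming 1 locus (6514) were named. Other genes were named as the largest and smallest wild-type change at 8 h in each list, those called between genotypes, and the 3 courses nearest each member. Members and lists were chosen with earlier results of these data known. Python 3.11.15 and pandas 2.3.3 made tables. Alternatives were other normalizations, a filter on dim probe sets, array weights, an intensity trend, a replicate block, separate fits and leaving out each array.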

Additional observations from a re-analysis of the deposited data

How the results depend on the processing

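Over 26 alternative settings, 5 of 5 LHCA members were called in each of the 6 light comparisons and 0 in each genotype comparison and interaction. Members had to differ in jmj17-1 at 2 h against dark, so nothing is read from the jmj17-1 light counts under any setting. How the selection bears on wild type was not tested. In the main fit, rises made up 31.1 to 42.7 percent of all probe sets in the light comparisons. Calls made up 1.27 to 8.76 percent between genotypes and 0.102 to 1.14 percent for interactions. Only counts for the steps between light times moved. For 2 h to 4 h in jmj17-1 (0 called), the groups fitted alone gave 2. For 2 h to 4 h in wild type (0 called), quantile normalization, median centring and array weights gave 1 each, and leaving out single arrays gave 0 to 2. For 4 h to 8 h in jmj17-1 (1 called), array weights and the groups fitted alone gave 2 each, and leaving out single arrays 1 to 2. For 4 h to 8 h in wild type (1 called), array weights gave 2, the groups alone 3, and leaving out single arrays 1 to 3. Besides replicate 2 of the dark mutant, leaving out its replicate 3 brought LHCA3 past the threshold in wild type from 4 h to 8 h (adjusted p = 0.0291) and LHCA5 from 2 h to 4 h (adjusted p = 0.0371). Without wild-type replicate 1 of 4 h, LHCA5 also passed from 2 h to 4 h (0.48, adjusted p = 0.0386).

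Replicate numbers were not taken to pair the samples. Deviations of same-numbered samples gave 6 distinct correlations, 3 in the dark and 1 at each light time, from -0.03 to 0.22, of which 2 were over 0.1. With the replicate block, calls were again 5 in each light comparison and 0 between genotypes, and 1 for 4 h to 8 h in each genotype. The files carry no background signal, so the margin of the dimmest dark values over it is not known.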
